A study of Mus musculus with 2 samples.

Results

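9 genes of the complement system were followed through the cells of the ventral parafacial region of the mouse medulla: C1qa, C1qb, C1qc, C3, C4b, Serping1, C3ar1, C5ar1 and Itgam. They were taken by gene symbol, 9 of the 28692 genes listed in the deposited tables. Droplet single-cell RNA-seq (10X v2 chemistry) had been run on 2 libraries from C57BL6/J pups at 10 days of age. One library came from untreated pups and was labelled batch 1. The other came from pups given 4OH-tamoxifen at 0.2 mg per day for 3 days and was labelled batch 2. Each library pooled 8 pups, 4 male and 4 female, and the labels name no transgene. With 1 library per condition, treatment and batch cannot be told apart and no difference between the libraries could be tested. Where 2 values are given for a class, the first is from the untreated library and the second from the 4OH-tamoxifen library. All intervals below are 95% intervals that cover counting error only, since the cells of a library are not replicates.

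Complement is a cascade of plasma and tissue proteins. C1q, built from the chains encoded by C1qa, C1qb and C1qc, binds its target and starts the classical pathway, C4 and C3 are then cleaved in turn, and fragments of C3 and C5 act on cells through the receptors C3aR1, C5aR1 and complement receptor 3, whose CD11b subunit is encoded by Itgam. C1 inhibitor, the product of Serping1, blocks the proteases that C1q activates. In the brain, microglia are the known source of C1q, and complement is known for its part in the removal of synapses during postnatal development.

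The untreated library held 3767 barcodes and 18496942 unique molecular identifiers (UMIs, each standing for 1 captured transcript), and the 4OH-tamoxifen library 10241 barcodes and 34704167 UMIs. After filtering, 3339 and 8558 cells remained, with a median of 3628 and 2411 UMIs per cell, and 32 of them in each library carried a barcode also kept in the other. Cells were placed in 9 classes by marker genes: Tmem119 for microglia, Mrc1 for border-associated macrophages, Aqp4 and Gfap for astrocytes, Pdgfra for oligodendrocyte precursors (OPC), Mog for oligodendrocytes, Cldn5 for endothelial cells, Kcnj8 for pericytes, Dcn for fibroblasts and Snap25 for neurons. The gate took cells with at least 2 UMIs of the class markers that made up at least 80% of the UMIs of all 10 markers. It held 1969 and 4170 cells, among them 159 and 105 microglia and 846 and 1882 astrocytes. The small classes were macrophages (14 and 8 cells), fibroblasts (19 and 14 cells) and pericytes (28 and 15 cells). Every further marker of a class was highest in that class in both libraries, except Cspg4 of the OPC. Because the gate was strict, levels are also given where they matter for clusters made without any complement gene, which held 374 and 601 microglia-like cells.

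The 3 C1q genes lie side by side on the minus strand of chromosome 4, with C1qb at 136880129 to 136886187, C1qc at 136889804 to 136893065 and C1qa at 136895917 to 136898803 (GRCm38, GENCODE M21), and their transcripts had like levels in microglia and in astrocytes. C3 (57203970 to 57228136) and C4b (34728380 to 34743882) lie on chromosome 17, Serping1 on chromosome 2 (84765387 to 84775444), C3ar1 on chromosome 6 (122847138 to 122856161), and C5ar1 (16246743 to 16259540) and Itgam (128062640 to 128118491) on chromosome 7. The RefSeq promoter windows (GRCm38.p6, 250 bases before to 50 after the annotated start) matched 6 of the 9 members: C1qb, C1qc, C3, C3ar1, C5ar1 and Itgam. They were searched on both strands for GAGGAA, the core of the site bound by the myeloid factor PU.1 (TTCCTC on the other strand). The windows of C1qb and C1qc are printed as neighbours with the same class pattern, that of Itgam as a microglial gene from another chromosome, and that of C3 as a member without a UMI in gated microglia. They cover chr4:136886151-136886450 for C1qb, chr4:136892865-136893164 for C1qc and chr17:57228087-57228386 for C3, all on the minus strand, and chr7:128062390-128062689 on the plus strand for Itgam. Each is written 5′ to 3′ along the gene, and capitals mark the matches to GAGGAA or TTCCTC.
C1qb: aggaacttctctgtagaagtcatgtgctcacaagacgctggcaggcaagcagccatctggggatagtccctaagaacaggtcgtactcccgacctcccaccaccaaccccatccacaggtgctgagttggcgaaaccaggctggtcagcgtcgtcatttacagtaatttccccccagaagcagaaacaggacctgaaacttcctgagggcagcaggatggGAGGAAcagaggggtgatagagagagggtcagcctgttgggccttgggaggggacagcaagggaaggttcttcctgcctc
C1qc: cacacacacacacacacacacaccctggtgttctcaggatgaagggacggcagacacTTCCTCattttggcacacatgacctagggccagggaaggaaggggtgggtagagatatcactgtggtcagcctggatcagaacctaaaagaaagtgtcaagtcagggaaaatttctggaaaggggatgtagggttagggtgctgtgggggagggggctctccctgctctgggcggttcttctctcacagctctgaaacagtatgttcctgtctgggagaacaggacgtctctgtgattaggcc
Itgam: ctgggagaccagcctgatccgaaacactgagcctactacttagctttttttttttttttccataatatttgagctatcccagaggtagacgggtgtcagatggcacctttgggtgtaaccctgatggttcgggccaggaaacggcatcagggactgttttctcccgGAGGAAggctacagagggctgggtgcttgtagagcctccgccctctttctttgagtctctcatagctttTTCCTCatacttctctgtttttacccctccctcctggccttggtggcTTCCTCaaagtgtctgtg
C3: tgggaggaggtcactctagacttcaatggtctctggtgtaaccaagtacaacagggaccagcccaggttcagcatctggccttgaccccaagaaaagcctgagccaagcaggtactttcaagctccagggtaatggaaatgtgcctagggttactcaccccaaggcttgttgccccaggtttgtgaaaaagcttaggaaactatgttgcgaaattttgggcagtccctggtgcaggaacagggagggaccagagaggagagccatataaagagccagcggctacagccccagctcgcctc
C1qb held 1 match, C1qc 1 and Itgam 3, and the windows of C3, C3ar1 and C5ar1 held none. Among all 32851 promoter windows of the same length, 28.3% held at least 1 match. These matches describe the letters of the windows and no binding was measured.

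Across the 9 classes the members fell into a myeloid group of 6 and 3 others. C1qa, C1qb, C1qc, C3ar1, C5ar1 and Itgam were highest in microglia or macrophages in both libraries. C3 was highest in astrocytes in both libraries, Serping1 in fibroblasts in both, and C4b in fibroblasts of the first library and astrocytes of the second. Levels are UMIs of the gene per 1000000 UMIs of the class (CPM). Of 8 members with at least 50 CPM in a class of each library, 6 were at least 5 times as high in the higher of microglia and macrophages as in any non-myeloid class in both libraries. Over all 6877 genes that reached this level, 2.78% met the same rule. C3ar1, C5ar1 and Itgam reached 50 CPM in microglia or macrophages alone, a filter that favours such a call. In 4OH-tamoxifen macrophages, pericytes and fibroblasts 3 UMIs made 137, 114 and 85.2 CPM, so the level could be reached with fewer. C3 was the member below 50 CPM.

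**Figure D1:**
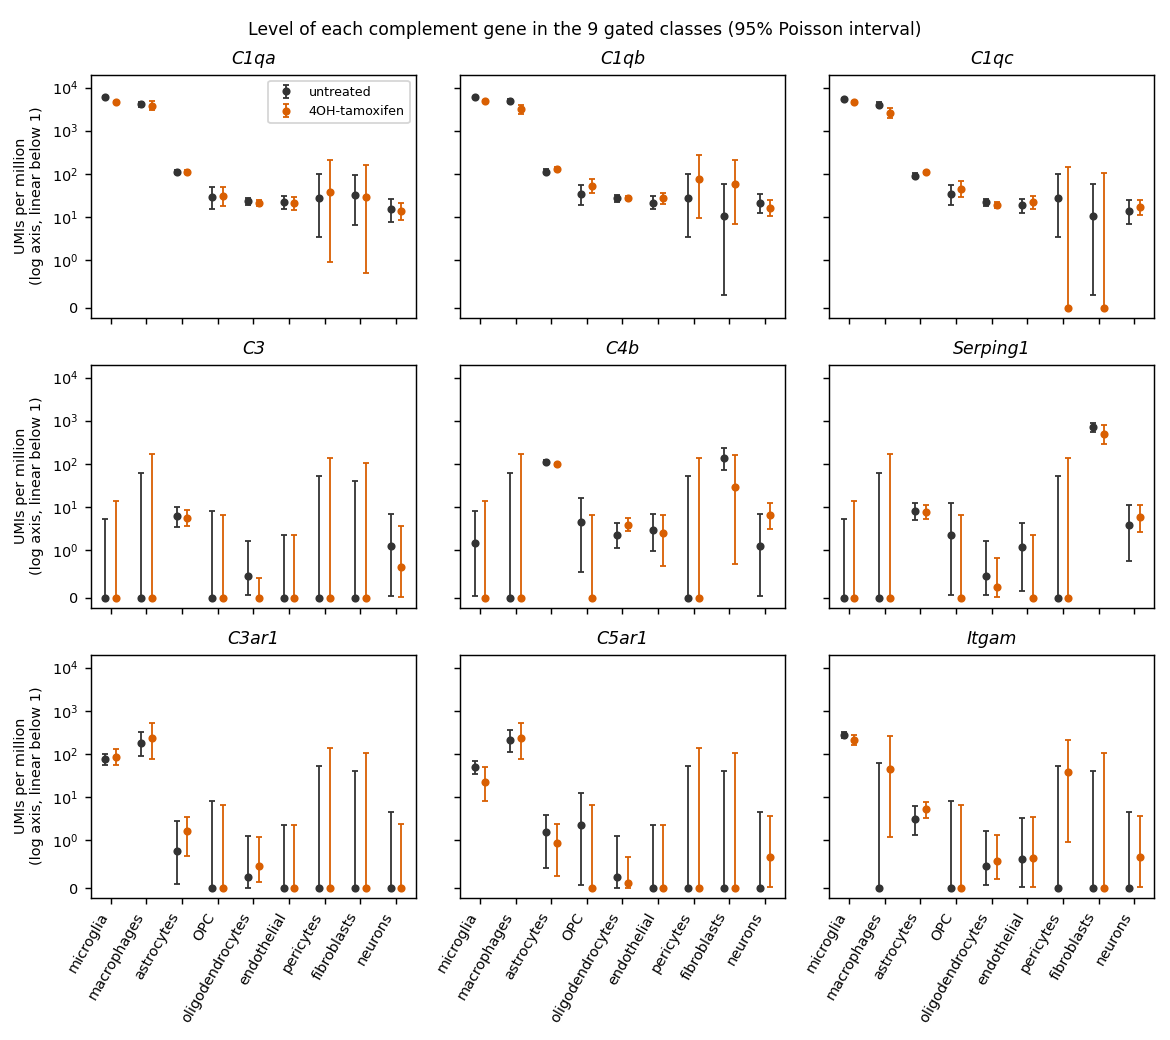
Level of each of the 9 complement genes (vertical axis, CPM on a log axis that is linear below 1) in the 9 gated classes (horizontal axis) of the untreated (grey) and 4OH-tamoxifen (orange) libraries, points with 95% Poisson intervals. The C1q chains stand at 2598 CPM or more in microglia and macrophages and near 100 CPM in astrocytes, C3 is above 5 CPM in astrocytes alone, and Serping1 stands out in fibroblasts; the wide bars belong to the classes with few cells.

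The C1q chains were among the most abundant transcripts of microglia. C1qa stood at 6185 CPM (6002 to 6373) in microglia of untreated pups and at 4552 CPM (4300 to 4815) after 4OH-tamoxifen. C1qb stood at 5941 CPM (5761 to 6124) and 4783 CPM (4525 to 5053), and C1qc at 5486 CPM (5314 to 5663) and 4619 CPM (4365 to 4884). Since this chemistry tags 1 end of each transcript, the levels do not scale with transcript length, and the 3 chains ranked 12, 15 and 18 among the 12762 genes detected in untreated microglia and 27, 21 and 25 among the 11526 detected in the other library. Together they stood at 17612 and 13954 CPM. The gate was narrow for them, as 51.4% and 75.5% of all C1q UMIs lay in ungated cells, mainly those of microglia-like clusters. All 159 and all 105 gated microglia held UMIs of all 3 chains. In microglia-like clusters this was so for 373 of 374 and 600 of 601 cells. With each cell thinned to 2000 UMIs, the middle untreated microglial cell held 35 C1q UMIs (quartiles 29 and 41, range 14 to 56, 159 cells) and the middle 4OH-tamoxifen cell 25.5 (quartiles 21.8 and 33.3, range 13 to 57, 76 cells). The ranges of the cells of the 2 libraries overlapped almost fully.

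Macrophages carried the next highest C1q levels. C1qa stood at 4097 CPM (3606 to 4637) and 3828 CPM (3054 to 4740) there, C1qb at 4865 and 3145 CPM and C1qc at 4032 and 2598 CPM. The chains summed were 1.36-fold (1.26 to 1.46) and 1.46-fold (1.27 to 1.68) higher in microglia than in macrophages. In clusters, macrophage-like cells held 0.711 (0.674 to 0.749) and 0.585 (0.545 to 0.628) of the microglia-like level. The order of microglia over macrophages was thus the same by gate and by cluster in both libraries. In untreated microglia C1qa gave 35.1%, C1qb 33.7% and C1qc 31.2% of 12295 C1q UMIs, and in 4OH-tamoxifen microglia 32.6%, 34.3% and 33.1% of 3734. The shares were less even in the 8 gated 4OH-tamoxifen macrophages, at 40% (33.3 to 47.0), 32.9% and 27.1% (21.3 to 33.7) of 210 UMIs. This was not seen in the 40 macrophage-like cells of that library, where the chains held 269, 278 and 247 UMIs. Untreated gated macrophages had another order, at 31.5%, 37.4% and 31.0% of 796 UMIs.

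Between the libraries, each C1q chain was lower in 4OH-tamoxifen than in untreated microglia, by less than 1.5-fold. The ratio of 4OH-tamoxifen to untreated was 0.736 (0.690 to 0.784) for C1qa, 0.805 (0.756 to 0.858) for C1qb and 0.842 (0.789 to 0.898) for C1qc, and 0.792 (0.764 to 0.822) for their sum. In microglia-like clusters the ratio of the sum was 0.843 (0.828 to 0.858). Of the 6 members with at least 50 CPM in microglia of either library, 1 was at least 1.5-fold apart, C5ar1, and it was lower in 4OH-tamoxifen. It reached 50 CPM in the untreated library alone, a filter that favours such a call, and the interval of its ratio (0.154 to 1.08) included 1. Over all 2959 genes at this level, 27.4% were at least 1.5-fold apart and 13.1% were at least 1.5-fold lower in 4OH-tamoxifen. The median log2 ratio of all 2959 genes was -0.01. The microglial genes P2ry12 (2312 and 871 CPM), Csf1r (1981 and 1618 CPM) and Cx3cr1 (1480 and 1338 CPM) were also lower in 4OH-tamoxifen microglia. So were Fcrls (1816 and 1353 CPM) and Ctss (3802 and 2758 CPM). The summed microglial markers of these cells stood at 16509 and 11525 CPM. The summed astrocyte markers stood at 802 and 1248 CPM in them, and the oligodendrocyte markers at 918 and 1364 CPM. The part of these shifts in the C1q ratio was not tested. The 12 genes of the early response to tissue dissociation had a summed level of 6128 CPM in untreated microglia and of 3774 CPM after 4OH-tamoxifen, but in mixed directions. Fos, Jun, Junb, Egr1, Atf3 and Ier2 were lower in the 4OH-tamoxifen library, and Dusp1 and Nfkbiz were nearly equal. The chemokine gene Ccl3 was nominally higher there, at 254 and 348 CPM from 177 and 93 UMIs. Ccl4 was nominally higher as well, at 318 and 389 CPM from 222 and 104 UMIs. No intervals were computed for the ratios of these genes. Hspa1a and Hspa1b held 22 UMIs or fewer. Median depth differed as well, at 4227 and 2255 UMIs per microglial cell. The summed C1q log2 ratio was -0.34 both before and after thinning to 2000 UMIs per cell. Thinning keeps, on average, the share of each gene in a cell, so this value cannot show the part of depth. The parts of depth and of the dissociation genes in the C1q ratio were not tested.

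**Figure D2:**
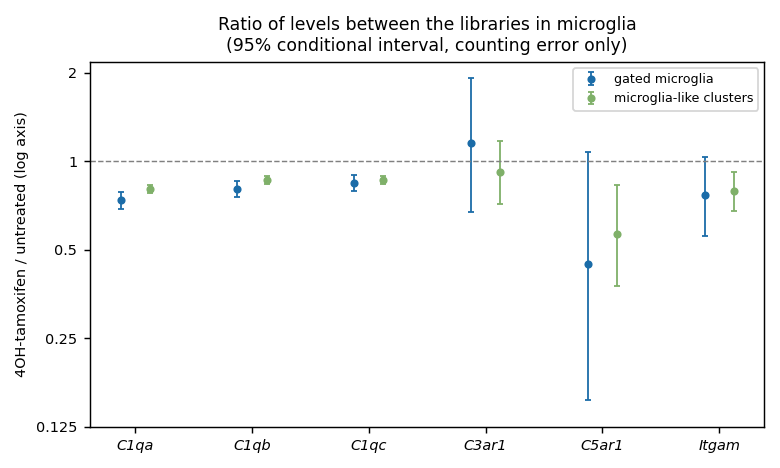
Ratio of the level in the 4OH-tamoxifen library to that in the untreated library (vertical axis, log scale) for the 6 members found in microglia (horizontal axis), in gated microglia (blue) and microglia-like clusters (green), with 95% conditional intervals. The C1q chains lie at 0.736 to 0.842 in gated microglia with narrow bars, while the receptor intervals in gated microglia all include 1.

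Outside the myeloid cells, C1q UMIs were found in every class at a small part of the microglial level. By gate, astrocytes were the highest, with 315 and 348 CPM for the chains summed, or 1.79% (1.67 to 1.92) and 2.50% (2.35 to 2.65) of microglia. Gated neurons held 49.6 and 47.0 CPM. The order of the non-myeloid classes was another by clusters. There C1qa was highest in fibroblast-like cells at 176 CPM (124 to 243) and 195 CPM (132 to 279), found in 7 of 50 and 7 of 58 cells, while it was 40.8 and 46.5 CPM in astrocyte-like, 29.4 and 26.6 CPM in neuron-like and 17.0 and 20.6 CPM in oligodendrocyte-like cells. C1qb and C1qc were also highest in the fibroblast-like cells among these classes. Over all 7 non-myeloid classes the level was 0.753% (0.711 to 0.797) and 0.998% (0.947 to 1.05) of that in microglia. The mean of the libraries, 0.875%, was 1.86% with a gate of 1 UMI and none of any other class and 0.392% without the cells holding a UMI of Cx3cr1, P2ry12, Csf1r or Fcrls. Another 5 genes of microglia, Cx3cr1, P2ry12, Csf1r, Fcrls and Ctss, were set beside it. Their levels in the same cells were 0.472% to 0.717% of microglia in untreated pups and 0.864% to 1.00% after 4OH-tamoxifen. The C1q percentage lay slightly above theirs in the untreated library, with an interval that overlapped those of all but P2ry12, and within theirs in the other. In astrocytes the 5 genes stood at 1.04% to 1.57% and 1.92% to 2.40%, and C1q lay slightly above. Its interval overlapped those of all but P2ry12 in the untreated and of all 5 genes in the other library.

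**Figure D3:**
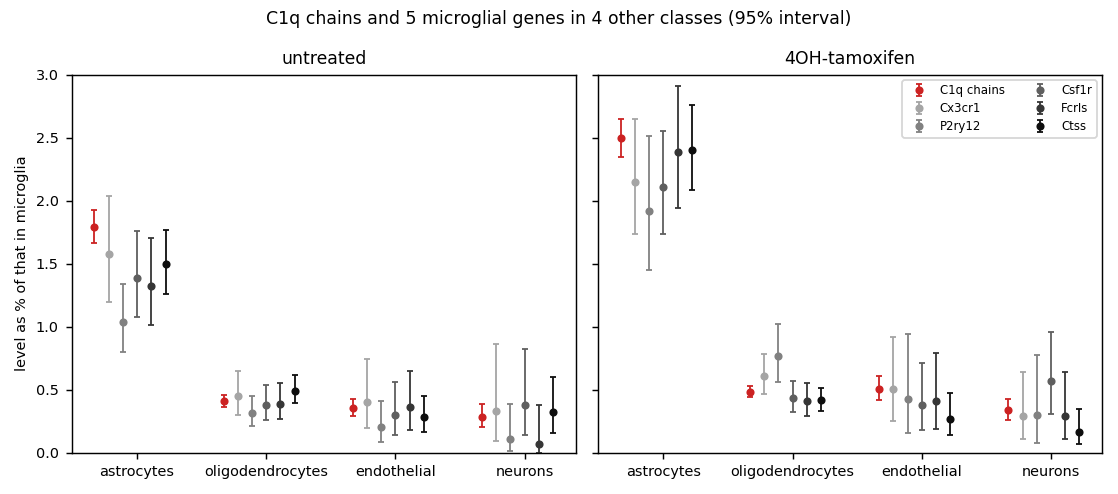
Level of the summed C1q chains (red) and of 5 microglial genes (greys) as a percentage of their level in microglia (vertical axis) in astrocytes, oligodendrocytes, endothelial cells and neurons (horizontal axis) of each library, with 95% intervals. All 6 quantities lie between 1.04% and 2.50% in astrocytes and below 0.8% in the other classes shown.

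The astrocyte C1q UMIs were concentrated in few cells. Astrocytes with at least 1 UMI of Cx3cr1, P2ry12, Csf1r or Fcrls were 79 of 846 and 162 of 1882, and they held 76.0% and 75.9% of all astrocyte C1q UMIs. Their C1q level was 2168 CPM (2002 to 2345) and 2790 CPM (2629 to 2958). The astrocytes without such a UMI stood at 85.0 CPM (73.6 to 97.7) and 92.9 CPM (83.5 to 103). In oligodendrocytes, the deepest class with a median of 10814 and 7032 UMIs, C1q was 71.6 and 67.4 CPM. The 3 chains kept similar shares in astrocytes as in microglia of the same library, with overlapping intervals for each chain. In 4OH-tamoxifen oligodendrocytes C1qb gave 40.7% (36.7 to 44.7) of 588 UMIs, above its 34.3% (32.8 to 35.8) in microglia. Free RNA and mixed droplets can give such counts, and their part was not tested.

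C3, the central component of the cascade, was scarce, with 52 UMIs in all kept cells of both libraries. Gated microglia held 0 C3 UMIs in both libraries. The floor of 3 counts per library was 4.30 CPM and 11.2 CPM, and the upper 95% limits for a count of 0 were 5.28 CPM and 13.8 CPM. In microglia-like clusters there was 1 UMI in each library, or 0.615 CPM (0.0156 to 3.43) and 0.636 CPM (0.0161 to 3.54). Astrocytes gave 16 UMIs, 6.11 CPM (3.49 to 9.92), without treatment and 24 UMIs, 5.65 CPM (3.62 to 8.41), after 4OH-tamoxifen. These were 64% and 88.9% of all C3 UMIs. Oligodendrocytes held 2 and 0 UMIs and neurons 1 and 1, the remaining classes had none, and cells outside every gate held 6 and 2. The 2 libraries did not differ detectably in astrocytes (ratio 0.925, 0.471 to 1.86).

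All C3 UMIs of astrocytes lay in cells with at least 2 Gfap UMIs. Gfap encodes the filament protein of fibrous and reactive astrocytes. It is also 1 of the 2 genes of the astrocyte gate, so the split below is within gated cells. The Gfap-rich cells numbered 349 and 902 and held C3 at 13.7 CPM (7.81 to 22.2) and 11.3 CPM (7.25 to 16.8). No C3 UMI was found in the 349 and 558 astrocytes without a Gfap UMI or in the 148 and 422 with 1. Against the floor of 3 counts in cells without Gfap, C3 was 4.58-fold and 4.48-fold higher in the Gfap-rich cells, and the lower 95% limits of the ratio without such a floor were 3.31 and 3.37. As a mean log2 value of both libraries, not a fold, this ratio was 1.31 with at least 1200 genes per cell. It was 0.78 with at most 10% mitochondrial UMIs, and both alternatives were chosen after seeing the data. They kept 531 and 600 astrocytes, and 214 and 759, against 846 and 1882. With fewer cells a floor of 3 counts is a higher CPM, which lowers the ratio by itself. A weaker C3 contrast can therefore not be read from these values. With cells thinned to 2000 UMIs, 4 of 323 and 9 of 531 Gfap-rich cells kept a C3 UMI. C3 was found in 9 and 17 cells, with at most 4 UMIs in a cell. Of these, 8 and 7 also held C4b, or 88.9% and 41.2%, against 37.5% and 26.2% of all Gfap-rich astrocytes. The cells with C3 were also deeper, with a median of 3710 and 2760 UMIs against 2946 and 2142, and the part of depth was not tested.

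C4b encodes C4, which carries the signal from C1 to C3. Its level in astrocytes was 109 CPM (96.6 to 122) and 96.5 CPM (87.4 to 106), from 285 and 410 UMIs, and these were 77.2% and 76.4% of all C4b UMIs. Microglia held 1 and 0 UMIs and macrophages none. OPC, oligodendrocytes, endothelial cells and neurons stood at 6.53 CPM or less in each library. In fibroblasts C4b was 138 CPM (73.6 to 236) from 13 UMIs in 3 of 19 untreated cells, and 28.4 CPM (0.719 to 158) from 1 UMI in 14 4OH-tamoxifen cells. In fibroblast-like clusters it was 186 CPM (132 to 254) in 50 cells and 26.1 CPM (7.10 to 66.7) in 58 cells. The fibroblast-like level was higher in the untreated library beyond counting error, while astrocytes and fibroblasts of the untreated gate could not be ordered (ratio 1.27, 0.667 to 2.21). C4a, the near-identical neighbour of C4b, is not among the listed genes, so how reads from both were counted is uncertain.

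Within astrocytes C4b, like C3, was highest in the Gfap-rich cells. It stood at 233 CPM (206 to 263) and 179 CPM (162 to 198) in cells with at least 2 Gfap UMIs, and at 8.96 CPM (4.10 to 17.0) and 13.5 CPM (7.70 to 21.9) in those with none. The ratio was 26.0 (13.5 to 57.6) without and 13.3 (8.08 to 23.5) with treatment. The mean log2 ratio of 4.22 was 5.18 with at least 1200 genes per cell. Cells with 1 Gfap UMI were close to those with none, at 6.77 and 14.9 CPM. At 2000 UMIs per cell, C4b was found in 30.7% and 20.2% of the Gfap-rich and in 2.21% and 1.79% of the Gfap-free astrocytes. Slc1a3, a general astrocyte transporter, had ratios close to 1, at 1.01 (0.926 to 1.10) and 1.02 (0.943 to 1.09). Other complement genes were higher in the Gfap-rich cells too. Clu had ratios of 2.10 (1.97 to 2.25) and 2.09 (1.94 to 2.25), and Cd59a of 11.8 (4.36 to 44.85) and 3.32 (1.87 to 6.33). Cr1l did not differ detectably, at 1.07 (0.658 to 1.74) and 0.887 (0.518 to 1.545). The C1q chains were also 3.87-fold (3.2 to 4.70) and 1.49-fold (1.30 to 1.73) higher in the Gfap-rich cells, but they were highest in the cells with 1 Gfap UMI in the 4OH-tamoxifen library, at 533 CPM.

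**Figure D4:**
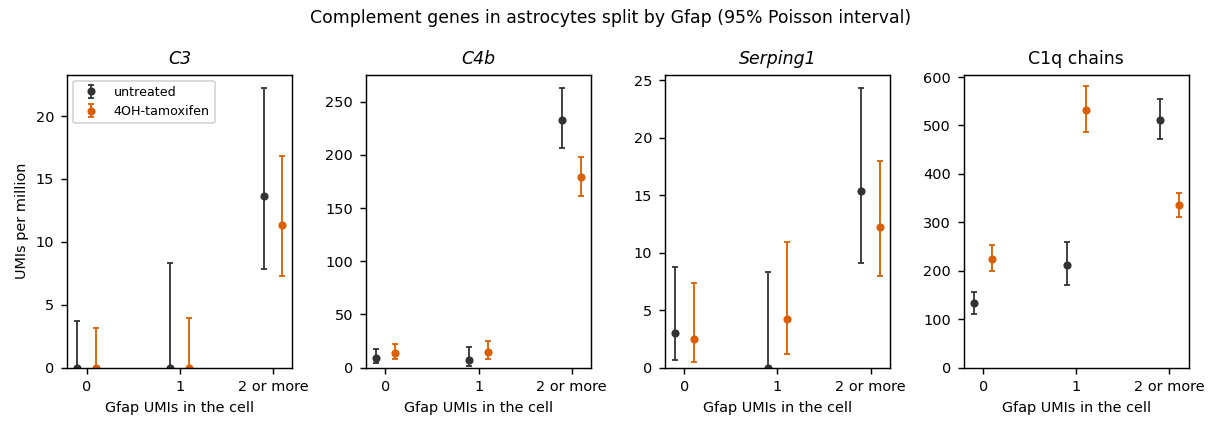
Levels of C3, C4b, Serping1 and the summed C1q chains (vertical axes, CPM, different scales) in astrocytes with 0, 1 or at least 2 Gfap UMIs (horizontal axes) of the untreated (grey) and 4OH-tamoxifen (orange) libraries, with 95% Poisson intervals. C3 and C4b are higher in the cells with at least 2 Gfap UMIs in both libraries, C4b at 233 and 179 CPM, and C1q shows no common order.

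Serping1, the inhibitor of the C1 proteases, was highest in fibroblasts. Untreated fibroblasts held 67 UMIs, 712 CPM (552 to 904), in 16 of 19 cells, and 4OH-tamoxifen fibroblasts 17 UMIs, 483 CPM (281 to 773), in 9 of 14. The fibroblast-like clusters stood at 681 CPM (574 to 803) and 293 CPM (214 to 392). Endothelial cells held 2 and 0 UMIs, so the fibroblast level was 595-fold higher in the untreated library, with a counting interval of 158 to 5009, and 260-fold higher than the floor of 3 counts in the 4OH-tamoxifen library, with a lower 95% limit of the ratio of 190. The mean log2 ratio of 8.62 was 6.74 with the gate of 1 UMI and 6.53 after thinning. Astrocytes came far below at 8.02 CPM (4.96 to 12.3) and 7.77 CPM (5.35 to 10.9). Within them, cells with at least 2 Gfap UMIs held 15.4 and 12.3 CPM and cells with none 2.99 and 2.53 CPM. Neurons held 3 and 9 UMIs. Microglia and macrophages held 0 Serping1 UMIs in both libraries. Gated pericytes also held none, and pericyte-like clusters stood at 32.7 CPM (14.9 to 62.0) and 35.1 CPM (15.2 to 69.2).

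The receptors of the C3a and C5a fragments were highest in macrophages. C3ar1 was 180 CPM (89.6 to 321) and 228 CPM (74.0 to 532) in macrophages, from 11 and 5 UMIs, and 74.5 CPM (55.6 to 97.7) and 86.0 CPM (54.5 to 129) in microglia. In clusters the macrophage level was 2.19-fold (1.36 to 3.38) and 1.54-fold (0.777 to 2.79) that of microglia, so the order held beyond counting error in the untreated library. C3ar1 was found in 23.9% and 18.1% of microglia, and in 10.7% and 11.8% once these were thinned to 2000 UMIs. Neurons, which served as a class expected to lack the receptors, gave 0 of 86 and 0 of 266 cells at a median of 8394 and 5005 UMIs.

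C5ar1 was 212 CPM (113 to 363) and 228 CPM (74.0 to 532) in macrophages. Microglia held 50.1 CPM (34.9 to 69.7) and 22.4 CPM (8.23 to 48.8). By clusters C5ar1 was 4.36-fold (2.69 to 6.89) and 5.40-fold (2.73 to 10.1) higher in macrophages than in microglia, an order beyond counting error in both libraries. The ratio of 4OH-tamoxifen to untreated microglia was 0.447 (0.154 to 1.08) from 6 and 35 UMIs, and 0.563 (0.377 to 0.831) in clusters from 42 and 77 UMIs. C5ar1 was found in 17.0% and 5.71% of gated microglia, and in 7.55% and 3.95% after thinning. In neurons it was found in 0 of 86 and 1 of 266 cells. Endothelial cells, pericytes and fibroblasts held 0 UMIs of C3ar1 or C5ar1 in both libraries, and astrocytes 2 and 7 of C3ar1 and 4 and 4 of C5ar1.

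Itgam had the opposite order within the myeloid cells. It stood at 274 CPM (236 to 315) and 209 CPM (158 to 272) in microglia, from 191 and 56 UMIs. Gated macrophages held 0 UMIs and 1 UMI, so the untreated microglial level was 5.59-fold higher than the floor of 3 counts, with a lower 95% limit of the ratio of 4.5. In clusters macrophage-like cells held 31.8 CPM (8.67 to 81.5) and 30.9 CPM (6.38 to 90.3), or 0.132 (0.0357 to 0.339) and 0.162 (0.0331 to 0.477) of the microglia-like level. The ratio between the libraries in microglia was 0.765 (0.557 to 1.03), and 0.791 (0.679 to 0.922) in clusters. Itgam was found in 66.7% and 41.9% of microglia, and in 43.4% and 38.2% after thinning to equal depth. In neurons it was found in 0 of 86 and 1 of 266 cells. The gene list held 2 rows with this symbol. The second, which the annotation places on an overlapping gene, gave 8 and 9 UMIs against 400 and 324, and reads shared by both could be lost, so the level is uncertain.

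A list of 46 other complement genes put the members in their setting. Of these, 45 were listed in the files, 24 had at least 20 UMIs in gated cells, and 17 of the 24 had the same leading class in both libraries. No test between the libraries was possible for them. In microglia the leading genes were Itgb2, the partner chain of Itgam in complement receptor 3, at 90.3 and 101 CPM, and C5ar2, a second C5a receptor, at 54.4 and 33.6 CPM. The intervals of both genes overlapped those of macrophages in both libraries. Macrophages led for Cfp, the stabiliser properdin of the alternative pathway, at 131 and 365 CPM, and for Fcna, the lectin pathway ficolin A, at 81.6 and 319 CPM. These values rest on 14 and 8 macrophages.

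Regulators were spread over non-myeloid classes. Fibroblasts led for the scavenger collectin Colec12 at 414 and 85.2 CPM, where the second value rests on 3 UMIs and overlapped macrophages. Cd55, a membrane inhibitor, was listed highest in fibroblasts from 3 UMIs and 1 UMI, with intervals that overlapped neurons. Astrocytes led for clusterin (Clu), which holds back the terminal complex, at 1842 and 1189 CPM. Cd46 stood at 5.35 and 3.06 CPM there, within counting error of neurons. Endothelial cells led for Cd93 at 832 and 768 CPM and for Cd59a, which blocks the membrane attack complex, at 86.2 and 92.8 CPM. Neurons led for Susd4 at 96.7 and 77.1 CPM, the second with an interval that overlapped OPC. Csmd2, Csmd3, C1qbp and Masp1 were nominally highest in OPC, but their intervals overlapped the next class in both libraries, except for Csmd2 in the untreated one, with Csmd3 at 79.3 CPM in OPC and 77.8 CPM in neurons after 4OH-tamoxifen and Masp1 at 2 UMIs and 1 UMI. Colec11 was nominally highest in oligodendrocytes, at no more than 2.98 CPM. For C2, C8g, Cd59b, Cr1l, Cr2, Vtn and Csmd1 the class with the highest mean level was not the highest in both libraries. The terminal components Hc (C5), C6, C7, C8a, C8b and C9 held 6 UMIs or fewer each, and the alternative pathway proteases Cfb and Cfd 2 and 0 UMIs.

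Likeness over the 9 classes was measured by Pearson's r of log2(CPM + 10), with CPM averaged over both libraries, among 6859 genes. It describes 9 points that share libraries and depth. The nearest genes to C1qa were Tyrobp (r = 0.997), Fcrls (0.993) and Fcgr3 (0.990). C1qb was nearest to Tyrobp, Fcrls and Rac2, and C1qc to Fcgr3, Cd68 and Spi1. C3ar1 was nearest to Tlr7 (0.999), Ccl9 and Fcgr2b, C5ar1 to Slfn2 (0.998), Cxcl2 and Epsti1, and Itgam to Ccl3 (0.980), Fgd2 and Cryba4. C4b was nearest to Tnc (0.995), Vcam1 and Fxyd1, and Serping1 to Efemp1 (0.999), Creb3l1 and Prelp. C3 was nearest to Myoc (0.976), Slc27a1 and Id4, but its level spanned only 0.67 on this log2 scale. Among the members themselves, r was 0.999 between C1qa and C1qb, 0.981 between C3ar1 and C5ar1, 0.584 between C5ar1 and Itgam, 0.669 between C3 and C4b, and -0.21 between C1qa and C4b.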

How the data were processed

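The authors used bcl2fastq 2.18.0.12 and then Cell Ranger 2.2.0 on the mm10 reference of 10X Genomics. The deposited values are raw counts of UMIs per gene and cell barcode, one matrix per library, without normalization. Filters of the study were applied again: Scrublet doublets (6 and 544 barcodes, 2 simulated doublets per cell, automatic thresholds of 0.512 and 0.179), at least 800 genes, at most 50 hemoglobin UMIs and at most 20% mitochondrial UMIs. 
Counts were summed over the cells of a class and divided by the class total (CPM). Intervals are exact Poisson for levels, exact binomial for shares and exact conditional for ratios, at 95%. A floor of 3 counts stood for 0. Shares were also computed after thinning to 2000 UMIs per cell, which left out cells below that depth (0 of 159 untreated and 29 of 105 4OH-tamoxifen microglia). Clusters were made with scanpy 1.11.5 and leidenalg 0.10.2 (resolution 0.7, 25 components, 2000 variable genes), without complement genes, and named from fixed markers. Python 3.11.15, numpy 2.4.6 and scipy 1.17.1 were used. The interval script was tested on simulated data. The members, lists and tests were chosen with earlier results of these data known. Named genes were the 9 members, other complement genes with at least 20 UMIs, class markers and the 3 genes most like each member. A few of the genes in these lists are not reported here.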

Additional observations from a re-analysis of the deposited data

Results flagged for a closer look

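C1q UMIs lay to a large part in cells outside every gate, which the levels by gate do not use: 51.4% of those in kept cells of untreated pups and 75.5% after 4OH-tamoxifen. Of these ungated C1q UMIs, 92.5% and 90.0% were in microglia-like clusters, in 202 and 473 cells with C1q at 16130 and 13964 CPM. Among them 15 and 107 cells had no Tmem119 UMI and 31 and 170 had 1. Their median depth was 4036 and 2425 UMIs, against 4227 and 2255 in gated microglia.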

How the results depend on the processing

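Of 51 recomputed values of the main comparisons 38 moved by less than the counting error, 13 moved further and 0 changed sign, and of 147 values of single genes 19 moved further; the cause was not tested. C3ar1 changed sign, with a log2 ratio of 4OH-tamoxifen to untreated microglia of 0.21 by gate and -0.13 by clusters, a move within counting error. The summed C1q log2 ratio of 4OH-tamoxifen to untreated microglia (-0.34) was -0.41 with at least 1200 genes per cell and -0.25 with classes from clusters. C4b by Gfap (mean log2 ratio 4.22) was 5.18 with at least 1200 genes per cell. Serping1 in fibroblasts against endothelial cells (8.62, with a floor of 3 counts for 0) was 6.74 with a gate of 1 UMI and none of any other class and 6.53 after thinning, and 9.22 in the untreated library alone, an alternative chosen after seeing the data, as were those for C3 by Gfap and the first Itgam row. C1q outside myeloid cells (0.875% of microglia, mean of the libraries) was 1.05% with no doublet removal, 0.796% with at least 1200 genes, 1.86% with the gate of 1 UMI, 0.721% with a gate of 3 UMIs, 0.622% by clusters, 1.02% after thinning, 1.10% as the mean over cells and 0.392% without cells holding a myeloid UMI. The count of 6 members highest in myeloid cells was 6 under all 10 alternatives. C5ar1, 1.5-fold apart between the libraries, fell below the minimum of 50 CPM with a gate of 3 UMIs, by clusters, after thinning and as the mean over cells, leaving 0 members called; its log2 ratio then lay between -0.83 and -1.14. C3 in microglia gave no ratio, since both libraries held 0 UMIs. No paired analysis was possible because each condition had 1 library. Classes with few cells and members with few UMIs limit the macrophage, fibroblast and C3 values.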
